A study of Mus musculus with 15 samples.

Results

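Myc and 40 genes of ribosome biogenesis were followed in RNA-seq of mouse CD8 T cells. The 41 genes were taken by symbol from a table of normalized expression, where all 41 were found among 23284 entries. All 41 passed the filter on low values, which kept the 11242 genes whose mean reached 1 FPKM in some population. FPKM is the fragment count of a gene scaled to the length of its transcript and to the mapped fragments of the library, so that levels of different genes can be set side by side per length. The genes fall into 7 groups by known role: the regulator Myc, 4 subunits of RNA polymerase I, 6 proteins of the nucleolus and its rDNA, 3 proteins of the box C/D and 3 of the box H/ACA small nucleolar ribonucleoproteins (snoRNPs), 11 factors of the small and 13 of the large ribosomal subunit.

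All cells came from OT-I mice, whose transgenic T cell receptor recognises the ovalbumin peptide SIINFEKL. The cultured cells were negatively selected CD8 T cells that had met peptide-coated dendritic cells cultured out of bone marrow (BMDC) and then stayed in culture for 14 days. They grew either in a cocktail of 4 agents (IL-7, IL-21, 2-deoxyglucose, which inhibits glycolysis, and TWS119, an inhibitor of the kinase GSK3) or in IL-2, a cytokine that drives division of activated T cells. Sorting by the surface proteins CD44 and CD62L gave 5 populations: CD44loCD62L+, CD44+CD62L+ and CD44+CD62L- cells from the cocktail, CD44+CD62L- cells from IL-2, and naive cells that were not cultured. The naive gate is CD44-CD62L+ in the design text and CD44loCD62L+ in the sample labels. Every population had 3 libraries, which the submitters describe as technical replicates. The p-values below therefore measure how technical libraries scatter, and say nothing of how mice or cultures vary. The sources used here do not give the number, strain or age of the mice.

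Ribosomes are built in the nucleolus. RNA polymerase I copies the rDNA into a long precursor, snoRNPs guide its methylation and pseudouridylation, and assembly factors cut, fold and export the pre-ribosomal particles of both subunits. Myc is a transcription factor that binds E-box sequences as a partner of Max and is known to drive genes at all of these steps. In T cells, Myc and ribosome biogenesis are known to increase after antigen recognition and to accompany growth and division.

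Each library had 10006 to 10473 genes at 1 FPKM or more. The CD8 T cell markers measured, 8 of 9 listed, were above 1 FPKM in every population. The 4 CD4 T cell markers summed to 8.14 to 9.01 FPKM in cocktail CD44loCD62L+, 10.1 to 10.6 in cocktail CD44+CD62L+, 11.02 to 11.5 in cocktail CD44+CD62L-, 16.5 to 17.4 in IL-2 and 7.74 to 9.41 in naive libraries, with 1 or 2 of them at 1 FPKM or more in each population, and Cd4 itself was below 1 FPKM in all libraries. The 3 NK cell markers summed to 6.96 to 9.93 FPKM in cocktail, 10.6 to 10.9 in IL-2 and 1.43 to 1.75 in naive libraries, with Ncr1 listed at 0 in the IL-2 and the cocktail CD44+CD62L+ cells. The summed level of 21 dendritic cell and macrophage markers was 278 to 287 FPKM in cocktail CD44loCD62L+, 285 to 295 in cocktail CD44+CD62L+, 313 to 324 in cocktail CD44+CD62L-, 202 to 205 in IL-2 and 336 to 340 in naive libraries. Among these, C1qa and Lyz1 were listed at 0 in the IL-2 cells. The part of such markers in the results below was not tested. The 5 B cell markers summed to at most 6.75 FPKM in any cultured library and to 39.0 to 40.4 FPKM in naive libraries. Small RNA genes held 4.86% to 10.6% of the FPKM sum of cultured libraries and 11.6% to 17.2% of that of naive libraries. In sorted bulk samples, fewer cells that express a gene and less RNA per cell cannot be told apart. Replicates were close: the coefficient of variation of a member between the libraries of a population had a median of 1.69%, with a range of 0.0131% to 8.61%.

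Most members were highest in the IL-2 cells and lowest in a cocktail population. The IL-2 cells had the highest mean in 28 of the 41 members, against 33.2% of all genes tested, and a cocktail population had the lowest mean in 31, against 31.3% of all genes. Naive cells had the highest mean in 9 members, among them Heatr1, Utp20 and Polr1a, against 37.4% of all genes tested. They had the lowest mean in 10, among them Ncl, Npm1 and Myc, against 36.8% of all genes. Both the IL-2 and the naive libraries lay above every cocktail library in 21 members, against 11.3% of all genes tested. The summed level of the 40 members other than Npm1 was 1447 ± 7.68 FPKM in cocktail CD44loCD62L+, 1475 ± 2.83 in cocktail CD44+CD62L+, 1501 ± 6.43 in cocktail CD44+CD62L-, 2284 ± 6.89 in IL-2 and 1591 ± 5.66 in naive cells (SD, n = 3 each). Npm1 was left out of this sum because it alone reached 816 to 1600 FPKM. Under quantile normalization the IL-2 cells had the highest mean in 22 members and naive cells in 15, while a cocktail population had the lowest in 32.

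**Figure D1:**
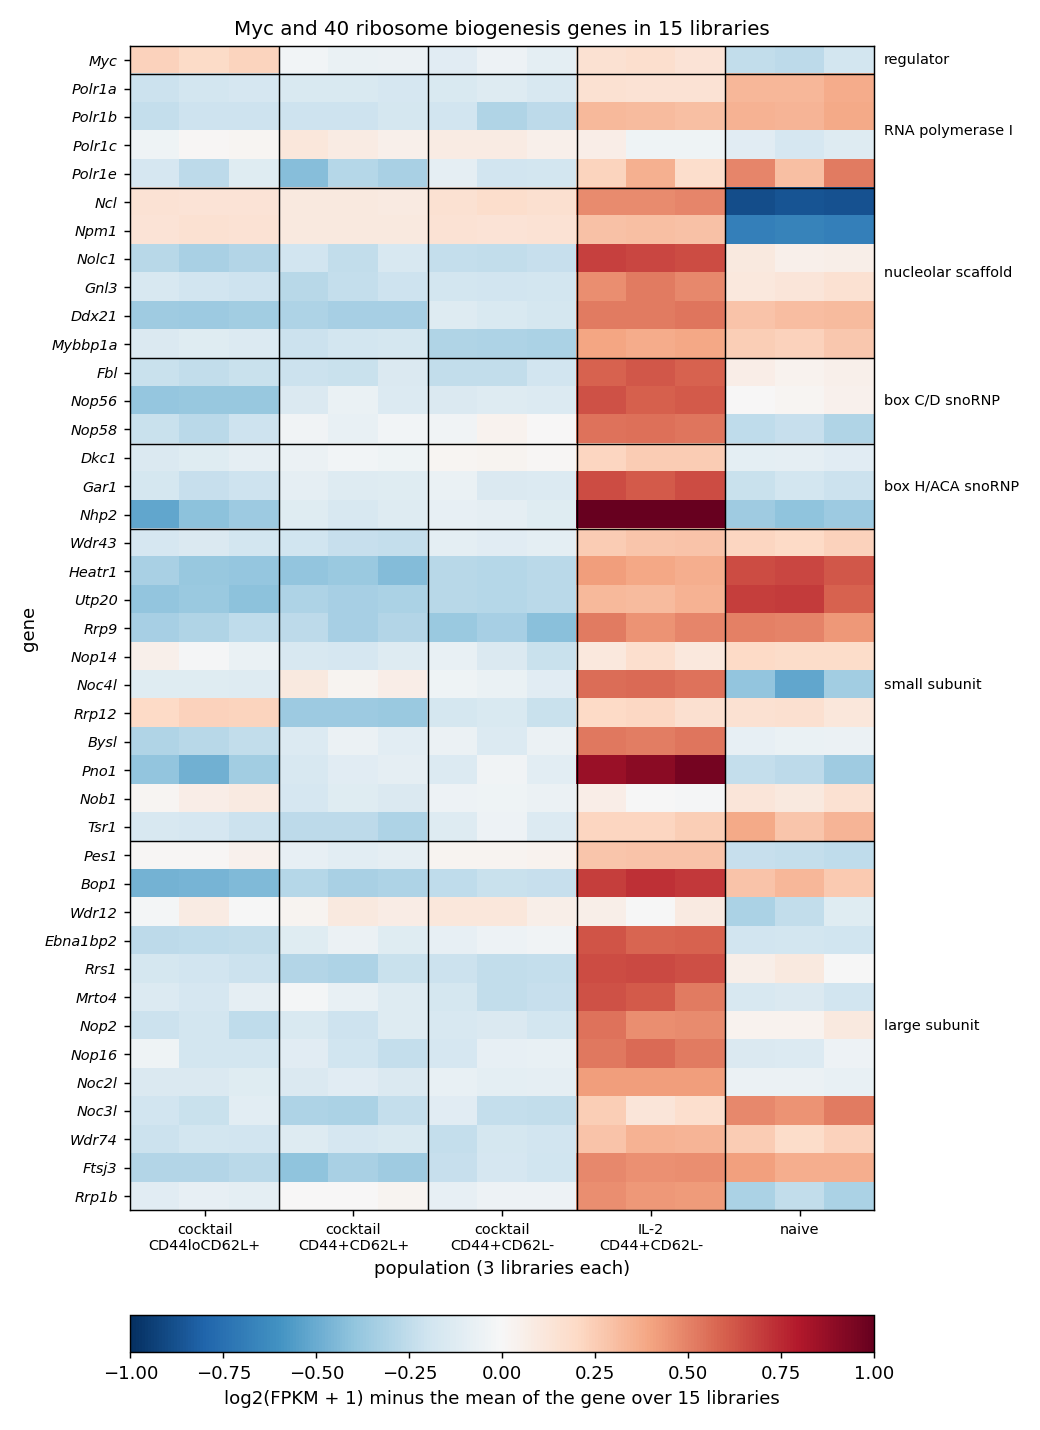
Level of each of the 41 members in the 15 libraries, as log2(FPKM + 1) minus the mean of that gene over all libraries. Rows are genes grouped by role and columns are libraries grouped by population. Red marks values above the mean of the gene and blue values below it, and the IL-2 libraries are red for most genes. The 28 members highest in IL-2 include all 12 of the nucleolar and snoRNP groups, and the 9 highest in naive cells are RNA polymerase I, small subunit and large subunit genes.

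Myc itself varied little. It was at 87.5, 84.8 and 86.7 FPKM in the 3 cocktail CD44loCD62L+ libraries, 72.8, 70.98 and 71.4 in the cocktail CD44+CD62L+, 68.6, 71.6 and 69.4 in the cocktail CD44+CD62L-, 82.8, 83.8 and 81.9 in the IL-2 CD44+CD62L- and 62.7, 61.8 and 65.5 in the naive libraries. The order from high to low was thus cocktail CD44loCD62L+, IL-2, cocktail CD44+CD62L+, cocktail CD44+CD62L- and naive, and only the cocktail CD44+CD62L+ and CD44+CD62L- libraries overlapped. The highest population mean was 1.36-fold the lowest. The log2 fold change was 0.44 ± 0.0218 (adjusted p = 1.97e-10) in cocktail CD44loCD62L+ against naive cells, 0.38 ± 0.0218 (adjusted p = 6.85e-10) in IL-2 against naive cells and -0.24 ± 0.0218 (adjusted p = 1.88e-07) in cocktail against IL-2 CD44+CD62L- cells. Fold changes are on the log2(FPKM + 1) scale with their standard error, and adjusted p-values are from limma, a linear model fitted across all genes, with the Benjamini-Hochberg method. A gene is called changed below where the adjusted p is under 0.05 and the log2 fold change is 1 or more in size, a 2-fold difference on this scale. Myc was changed in 0 of the 7 comparisons by this rule, although 6 of them passed the adjusted p alone. Under quantile normalization its value was 0.15 in IL-2 against naive cells and -0.11 in cocktail against IL-2 CD44+CD62L- cells, and 5 of the 7 passed, since cocktail CD44+CD62L- against naive cells came to 0.044 (adjusted p = 0.0943).

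**Figure D2:**
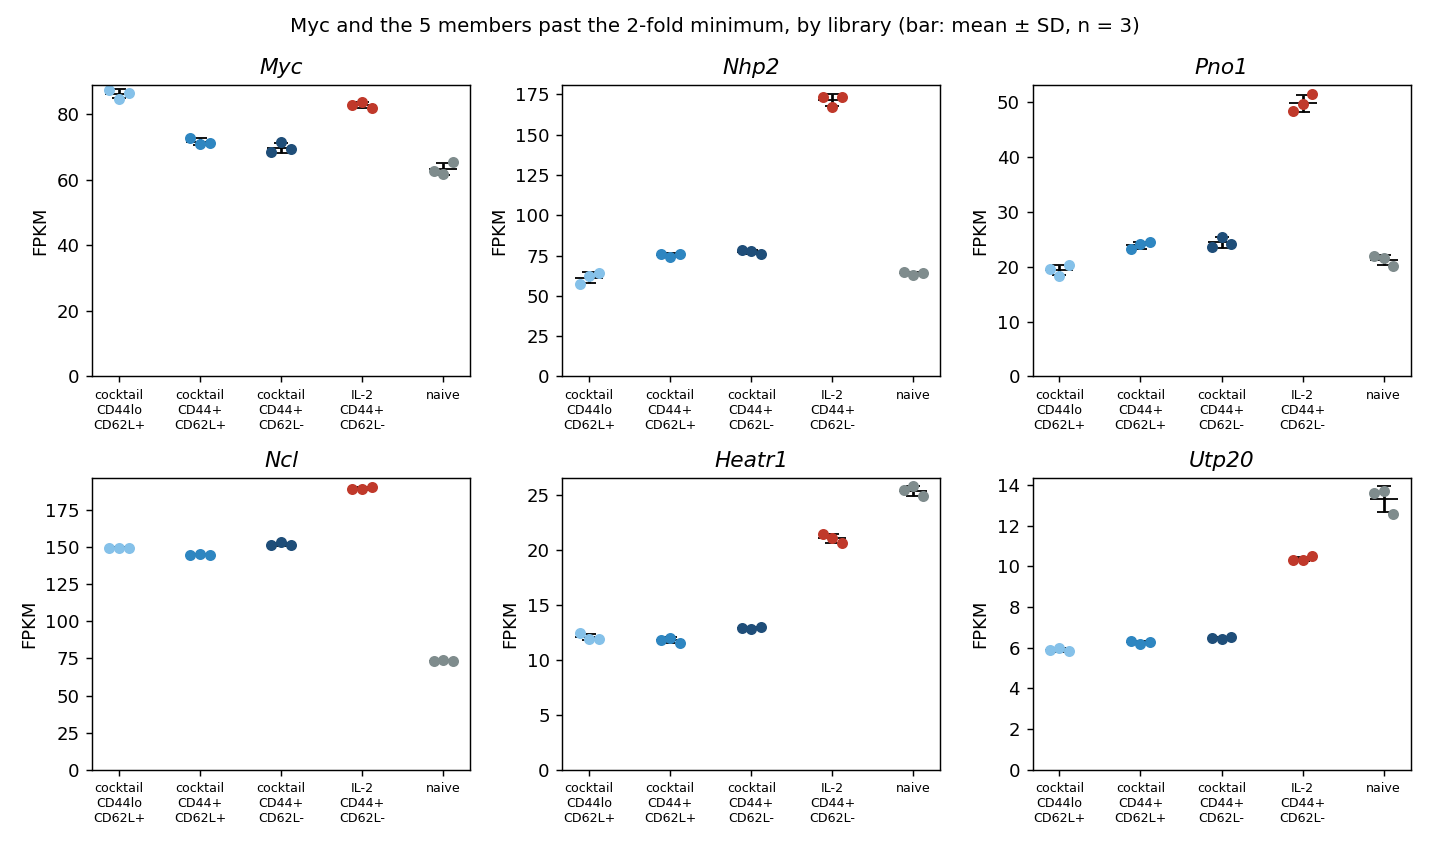
Level in FPKM of Myc and of the 5 members that changed in some comparison, by library, for the 5 populations. Points are libraries and bars are mean ± SD (n = 3). Nhp2 and Pno1 stand apart in the IL-2 cells, Ncl is lowest in naive cells, and Heatr1 and Utp20 are highest in naive cells and lowest in the cocktail populations.

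Cocktail and IL-2 cells that had passed the same CD44+CD62L- gate were set against each other to see how the members differed with the culture medium. Nearly all members were lower in the cocktail cells, by a modest amount. Of the 41 members, 39 were lower at the adjusted p alone and their cocktail libraries all lay below the IL-2 libraries, against 43.7% of all genes tested for the adjusted p and 43.9% for libraries that do not overlap. The median log2 fold change of the members was -0.60, and that of all genes tested was -0.01. At a minimum fold of 1.5, 21 members were lower and 0 higher, against 10.8% and 11.2% of all genes. At the minimum fold of 2, only Nhp2 fell, 1 of 41 members, against 3.2% of all genes called lower, and 0 members rose, against 4.64% of all genes. In the same comparison 16 of 17 cell cycle markers were lower at the adjusted p, with a median log2 fold change of -0.39. The dendritic cell and macrophage markers were higher in sum, as given above, such as Lyz2 at 21.3 ± 0.710 FPKM in the cocktail and 0.427 ± 0.0584 FPKM in the IL-2 cells. The part of either list in the values of the members was not tested.

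Nhp2 encodes a core protein of box H/ACA snoRNPs, which guide pseudouridylation, and of telomerase. It was at 78.2, 78.1 and 76.02 FPKM in the cocktail CD44+CD62L- libraries and 174, 167 and 173 FPKM in the IL-2 libraries. All 3 cocktail libraries were below all 3 IL-2 libraries, and the log2 fold change was -1.14 ± 0.0315 (adjusted p = 6.73e-13). The call was lost under quantile normalization, at -0.94. Its partners in the same particle were lower by less. Gar1 was at 23.4 ± 0.736 FPKM in the cocktail cells against 40.3 ± 0.643 FPKM in IL-2 cells, and Dkc1, the pseudouridine synthase dyskerin, at 44.6 ± 0.250 FPKM in the cocktail cells against 52.1 ± 0.911 FPKM in IL-2 cells, with log2 fold changes of -0.76 ± 0.0230 and -0.22 ± 0.0156.

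The box C/D proteins, which carry out methylation of rRNA, had like differences. Fbl, the methyltransferase fibrillarin, was at 113, 113 and 117 FPKM in the cocktail CD44+CD62L- libraries and 203, 207 and 203 FPKM in the IL-2 libraries. Nop56 was at 99.9, 101 and 100.4 FPKM in the cocktail against 172, 168 and 169.7 FPKM in IL-2 libraries, and Nop58 at 75.4, 79.2 and 77.5 FPKM in the cocktail and 113, 113 and 112 FPKM in the IL-2 libraries. For all 3 genes the groups did not overlap, with log2 fold changes of -0.83 ± 0.0197 for Fbl, -0.75 ± 0.0175 for Nop56 and -0.54 ± 0.0231 for Nop58.

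Of the 11 small subunit factors, 11 were lower at the adjusted p, against 43.7% of all genes tested, with a median of -0.60. Pno1, which binds the end of the maturing small subunit rRNA together with the nuclease Nob1, was at 23.6, 25.5 and 24.2 FPKM in the cocktail CD44+CD62L- libraries and 48.3, 49.6 and 51.5 FPKM in the IL-2 libraries. The groups lay far apart, and the log2 fold change of -0.998 ± 0.0405 was just short of the minimum. It passed when IL-2 library 1, IL-2 library 2 or cocktail CD44+CD62L- library 2 was left out, at -1.019, -1.001 and -1.028. Nob1 itself differed by little, at 38.6, 38.8 and 38.3 FPKM in the cocktail and 42.01, 39.8 and 39.7 FPKM in the IL-2 libraries (log2 fold change -0.07 ± 0.0243, adjusted p = 0.0168), and its sign turned to 0.02 under quantile normalization. Rrp9, a protein of a snoRNP that guides early cleavage of the precursor, was at 21.7, 22.3 and 20.9 FPKM in the cocktail and 40.9, 39.1 and 40.1 FPKM in the IL-2 libraries, a log2 fold change of -0.86 ± 0.0302. Nop14, a scaffold of the small subunit processome, was at 19.9, 18.9 and 17.9 FPKM in the cocktail and 22.7, 23.7 and 22.7 FPKM in IL-2 libraries, and its log2 fold change was -0.27 ± 0.0353. The other 7 small subunit factors (Heatr1, Utp20, Wdr43, Noc4l, Rrp12, Bysl and Tsr1) lay between -0.67 and -0.33.

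Of the 13 large subunit factors, 12 were lower at the adjusted p, against 43.7% of all genes tested, with a median of -0.65. Bop1 was lowest by fold, at 32.5, 33.1 and 32.9 FPKM in the cocktail CD44+CD62L- libraries and 63.3, 65.3 and 64.2 FPKM in IL-2 libraries, and its log2 fold change was -0.95 ± 0.0191. Bop1 works in a complex with Pes1 and Wdr12 that matures the large subunit, and the values of these partners lay nearer 0. Pes1 was at 41.1, 41.2 and 41.5 FPKM in the cocktail and 49.2, 49.5 and 49.5 FPKM in the IL-2 libraries (log2 fold change -0.25 ± 0.0127), and Wdr12 at 16.8, 16.8 and 16.1 FPKM in the cocktail and 16.1, 15.4 and 16.5 FPKM in the IL-2 libraries (log2 fold change 0.05 ± 0.0454, adjusted p = 0.318). The Wdr12 libraries overlapped between the groups. Rrs1, a large subunit assembly factor, had a log2 fold change of -0.89 ± 0.0259. The remaining 9 large subunit factors (Mrto4, Nop2, Nop16, Ebna1bp2, Ftsj3, Wdr74, Noc2l, Rrp1b and Noc3l) lay between -0.81 and -0.38.

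Among the nucleolar proteins, Nolc1, a chaperone of snoRNPs, was at 27.7, 27.6 and 27.9 FPKM in the cocktail CD44+CD62L- libraries and 53.3, 52.7 and 52.05 FPKM in the IL-2 libraries, a log2 fold change of -0.90 ± 0.0209. Npm1 and Ncl, the most abundant of the nucleolar group in both of these populations, differed by less. Npm1, encoding nucleophosmin, was at 1444, 1438 and 1448 FPKM in the cocktail and 1598, 1605 and 1598 FPKM in the IL-2 libraries (log2 fold change -0.15 ± 0.00545), and Ncl, encoding nucleolin, was at 151, 153 and 152 FPKM in the cocktail and 189, 189 and 191 FPKM in the IL-2 libraries (log2 fold change -0.32 ± 0.00777). Gnl3, the GTPase nucleostemin, Ddx21, an RNA helicase of the nucleolus, and Mybbp1a, a nucleolar Myb-binding protein, lay between -0.69 and -0.67. Of the RNA polymerase I subunits, Polr1b was at 10.2, 9.36 and 9.63 FPKM in the cocktail and 14.9, 14.9 and 14.7 FPKM in the IL-2 libraries (log2 fold change -0.57 ± 0.0249). Polr1a, which forms the catalytic core with Polr1b, had a log2 fold change of -0.29 ± 0.0173, and Polr1e -0.41 ± 0.0633. Polr1c, a subunit that RNA polymerase III also uses, was the only member higher in the cocktail cells at the adjusted p alone, at 49.8, 49.7 and 48.6 FPKM in the cocktail against 49.1, 45.5 and 45.6 FPKM in the IL-2 libraries (log2 fold change 0.08 ± 0.0286, adjusted p = 0.0211), and the groups overlapped.

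**Figure D3:**
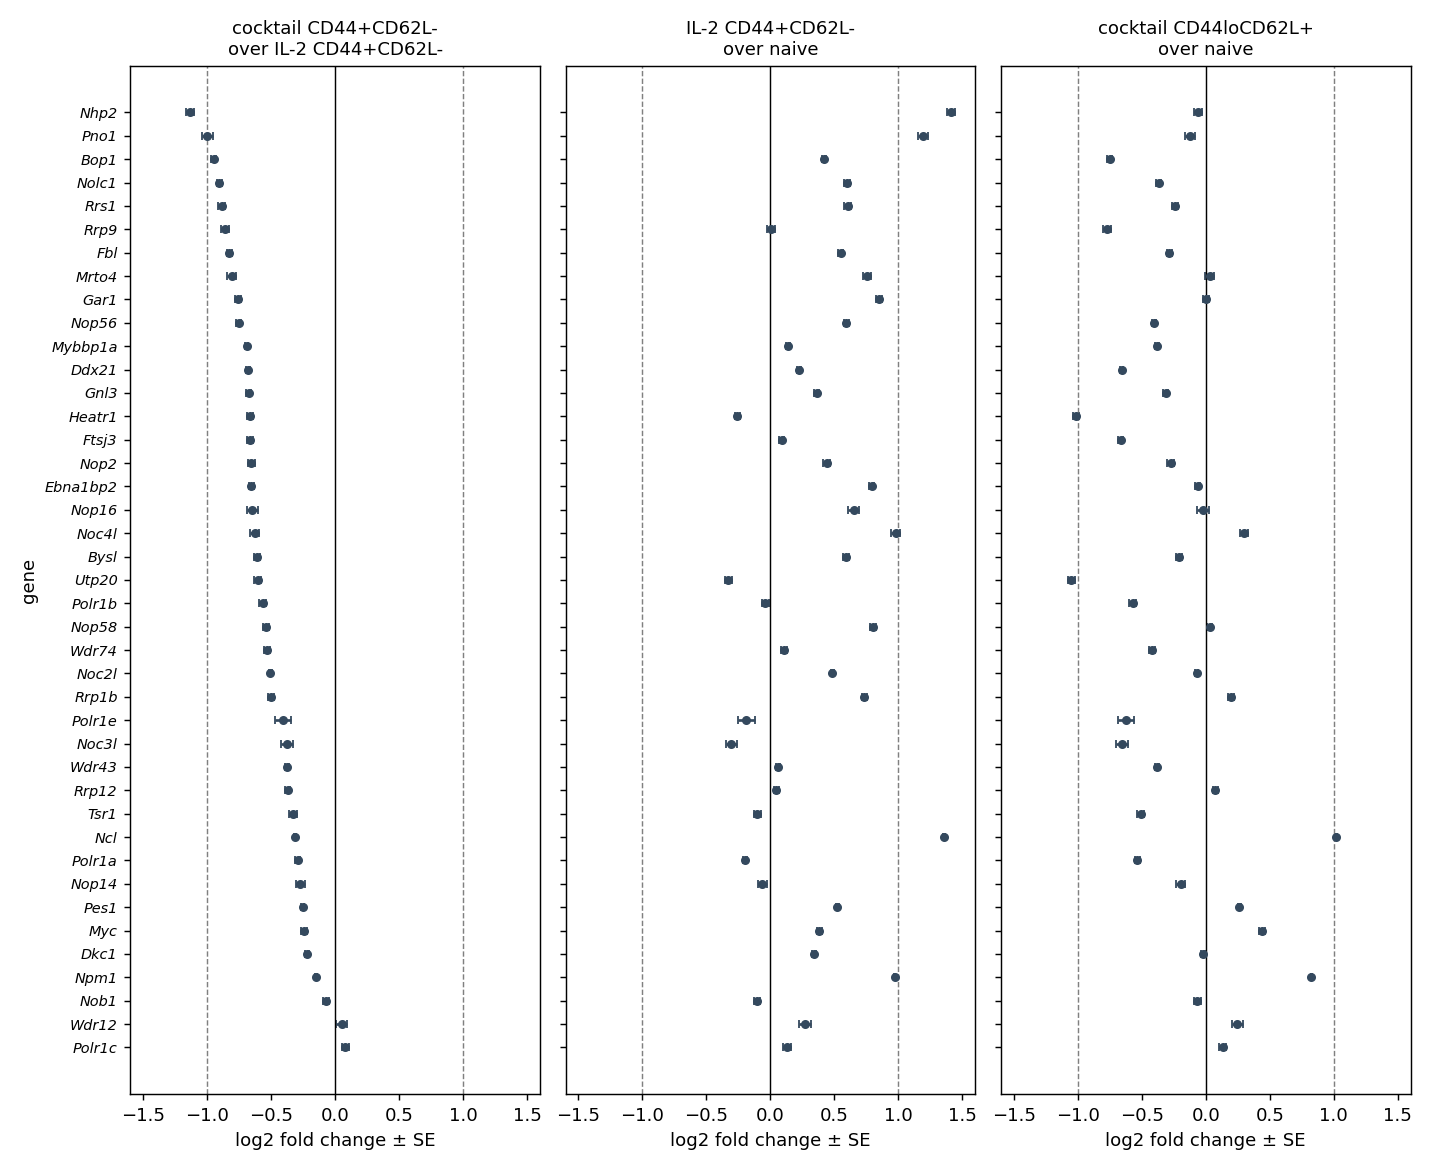
Log2 fold change ± SE of the 41 members in cocktail over IL-2 CD44+CD62L- cells (left), IL-2 cells over naive cells (middle) and cocktail CD44loCD62L+ cells over naive cells (right), in the order of the left panel. Dashed lines mark a 2-fold difference. In the left panel 39 of the 41 genes lie below 0, while the middle and right panels, which share the naive libraries, spread to both sides.

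Within the cocktail culture, the gates were compared to see whether surface phenotype went with other levels of these genes. In the CD44+CD62L+ against the CD44+CD62L- cells, limma called 0 members higher and 0 lower, against 0.0356% and 0.0801% of all genes tested. At the adjusted p alone, 5 members were higher and 15 lower, against 24.1% and 24.3% of all genes, and the median log2 fold change was -0.04. Libraries did not overlap in 5 members that were higher and 16 that were lower, against 27.7% and 28.0% of all genes, and 0 members passed a minimum fold of 1.5 in either direction, against 0.294% and 0.338%. The range of log2 fold changes over the 41 members was -0.19 to 0.14. The ends of the range were Polr1e, at 5.46, 6.11 and 5.92 FPKM in the CD44+CD62L+ and 7.14, 6.58 and 6.63 FPKM in the CD44+CD62L- libraries, and Mrto4, a large subunit assembly factor, at 36.6, 35.2 and 33.9 FPKM in the CD44+CD62L+ and 32.8, 31.2 and 31.5 FPKM in the CD44+CD62L- libraries. Neither pair of groups overlapped, yet both differences were far below 2-fold. Of the 17 cell cycle markers, 16 were higher and 1 lower in the CD44+CD62L+ cells at the adjusted p, with a median log2 fold change of 0.29, while the members' median was below 0, and their part in the members' values was not tested.

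In the cocktail CD44loCD62L+ against the CD44+CD62L+ cells, limma again called 0 members higher and 0 lower, against 0.418% and 2.26% of all genes tested. At the adjusted p alone 15 were higher and 15 lower, against 36.5% and 36.9% of all genes, while quantile normalization gave 18 and 10 and an equal FPKM sum without small RNA genes gave 7 and 21. Libraries did not overlap in 15 higher and 17 lower members, against 37.7% and 38.4% of all genes, and 0 members passed a minimum fold of 1.5 in either direction, against 2.55% and 6.11%. The median log2 fold change was -0.03 and turned to 0.03 under quantile normalization. Single members differed in opposite directions. Rrp12, a factor of small subunit export, was at 16.6, 16.96 and 16.8 FPKM in the CD44loCD62L+ and 10.9, 10.9 and 10.8 FPKM in the CD44+CD62L+ libraries (log2 fold change 0.58 ± 0.0205, adjusted p = 1.78e-11), and Myc was higher at the adjusted p as well (log2 fold change 0.26 ± 0.0218, adjusted p = 1.43e-07). Nob1, at 41.7 ± 1.03 FPKM in the CD44loCD62L+ and 36.1 ± 0.671 FPKM in the CD44+CD62L+ cells, was also higher at the adjusted p. Nhp2 was at 57.6, 62.3 and 64.2 FPKM in the CD44loCD62L+ and 76.2, 74.1 and 75.9 FPKM in the CD44+CD62L+ libraries, Pno1 at 19.6, 18.4 and 20.3 FPKM in the CD44loCD62L+ and 23.2, 24.1 and 24.4 FPKM in the CD44+CD62L+ libraries, and Nop56 at 84.2, 84.96 and 84.7 FPKM in the CD44loCD62L+ and 100.1, 106 and 101 FPKM in the CD44+CD62L+ libraries. All 3 were lower in the CD44loCD62L+ cells with no overlap, at log2 fold changes of -0.29 ± 0.0315, -0.29 ± 0.0405 and -0.27 ± 0.0175. Over the same comparison 17 of 17 cell cycle markers were lower at the adjusted p, and 12 of them passed the 2-fold minimum. Their median log2 fold change was -1.52. Plk1, a mitotic kinase, was at 20.99 ± 0.554 FPKM in the CD44loCD62L+ and 86.5 ± 0.937 FPKM in the CD44+CD62L+ cells. The part of the cell cycle in the members' values was not tested.

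The IL-2 cells were set against naive cells to see how long-term culture in IL-2 went with these genes. Nhp2, Ncl and Pno1 rose and 0 members fell, against 17.6% and 13.7% of all genes tested. At the adjusted p alone 31 were higher and 7 lower, against 46.9% and 44.9% of all genes, and under quantile normalization this split was 24 and 13. At a minimum fold of 1.5, 15 were higher, against 28.3% of all genes, and 0 lower, against 25.3%. Libraries did not overlap in 31 higher and 8 lower members, against 46.9% and 44.8% of all genes. The median log2 fold change of the members was 0.38, and that of all genes was 0.02.

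Nhp2 was at 174, 167 and 173 FPKM in IL-2 libraries and 64.7, 62.7 and 64.2 FPKM in the naive libraries (log2 fold change 1.41 ± 0.0315, adjusted p = 1.78e-14). Ncl was at 189, 189 and 191 FPKM in the IL-2 and 72.98, 73.98 and 73.6 FPKM in the naive libraries (log2 fold change 1.36 ± 0.00777, adjusted p = 1.24e-20). Pno1 was at 48.3, 49.6 and 51.5 FPKM in the IL-2 and 21.96, 21.6 and 20.2 FPKM in the naive libraries (log2 fold change 1.19 ± 0.0405, adjusted p = 1.97e-12). In all 3 genes every IL-2 library exceeded every naive library. Noc4l, the partner of Nop14 in the small subunit processome, and Npm1 came just short of the minimum. Noc4l was at 40.5, 40.7 and 39.95 FPKM in the IL-2 and 20.4, 18.7 and 21.1 FPKM in the naive libraries (log2 fold change 0.98 ± 0.0339), and passed at 1.01 when naive library 3 was left out. Npm1 was at 1598, 1605 and 1598 FPKM in the IL-2 and 814, 822 and 812 FPKM in the naive libraries (log2 fold change 0.97 ± 0.00545).

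Of all genes tested, 46.9% were higher and 44.9% lower at the adjusted p in IL-2 over naive cells. By role, 6 of the 6 nucleolar proteins were higher at the adjusted p, with a median of 0.48. So were 3 of 3 box C/D, 3 of 3 box H/ACA and 12 of 13 large subunit factors, with medians of 0.59, 0.85 and 0.48. Of the 11 small subunit factors 5 were higher and 4 lower, not far from the shares of all genes, with a median of 0.01. Of the 4 polymerase subunits 1 was higher and 2 lower, with a median of -0.11. Under quantile normalization the small subunit factors had 3 higher and 7 lower with a median of -0.11, the nucleolar proteins 4 higher and 2 lower and the polymerase subunits 0 higher and 2 lower, and with an equal FPKM sum without small RNA genes the small subunit factors had 3 higher and 5 lower with a median of -0.029. Utp20 and Heatr1, large scaffold proteins of the small subunit processome, had the lowest values of the small subunit group. Utp20 was at 10.3, 10.3 and 10.5 FPKM in the IL-2 and 13.6, 13.7 and 12.6 FPKM in the naive libraries (log2 fold change -0.33 ± 0.0270), and Heatr1 at 21.4, 21.02 and 20.6 FPKM in the IL-2 and 25.4, 25.8 and 24.9 FPKM in the naive libraries (log2 fold change -0.26 ± 0.0222). Noc3l was the one large subunit factor that was lower, at 9.78, 8.91 and 9.24 FPKM in the IL-2 and 11.7, 11.4 and 12.04 FPKM in the naive libraries (log2 fold change -0.30 ± 0.0441). The highest of that group was Ebna1bp2, at 46.7, 45.2 and 45.5 FPKM in the IL-2 and 26.04, 26.2 and 25.95 FPKM in the naive libraries (log2 fold change 0.79 ± 0.0186). Of the polymerase subunits, Polr1a was at 15.97, 15.9 and 15.9 FPKM in the IL-2 and 18.2, 18.3 and 18.8 FPKM in the naive libraries, the lowest by fold (log2 fold change -0.20 ± 0.0173), and Polr1c was the one that was higher (log2 fold change 0.13 ± 0.0286, -0.02 under quantile normalization). The 17 cell cycle markers all rose here, with a median log2 fold change of 4.98. Their part in the values of the members was not tested. This comparison shares the IL-2 libraries with that of cocktail and IL-2 cells.

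The cocktail populations were also compared with naive cells. These 3 comparisons share the naive libraries, so their values are set side by side and are not independent. Limma called 1 member higher and 2 lower in the CD44loCD62L+ cells (11.6% and 6.11% of all genes tested), 0 higher and 1 lower in the CD44+CD62L+ cells (14.4% and 8.44%), and 1 higher and 0 lower in the CD44+CD62L- cells (13.9% and 8.59%). At the adjusted p alone, 9 were higher and 26 lower in the CD44loCD62L+ cells (43.2% and 45.4% of all genes), 15 and 24 in the CD44+CD62L+ cells (45.2% and 45.5%) and 14 and 23 in the CD44+CD62L- cells (45.1% and 45.5%). With median-ratio scaling the first of these splits was 13 and 22. Libraries did not overlap in 9 higher and 25 lower members in the CD44loCD62L+ cells (43.4% and 45.8% of all genes), 15 and 24 in the CD44+CD62L+ cells (45.3% and 45.7%) and 14 and 23 in the CD44+CD62L- cells (44.9% and 45.7%). At a minimum fold of 1.5 there were 2 higher and 8 lower in the CD44loCD62L+ cells (19.9% and 16.1% of all genes), 2 and 9 in the CD44+CD62L+ cells (23.7% and 19.8%) and 2 and 6 in the CD44+CD62L- cells (23.8% and 20.0%). The median log2 fold changes were -0.21, -0.25 and -0.22 in the CD44loCD62L+, CD44+CD62L+ and CD44+CD62L- cells. All 17 cell cycle markers were higher at the adjusted p in each cocktail population. The 2-fold minimum was passed by 14 in the CD44loCD62L+, 17 in the CD44+CD62L+ and 17 in the CD44+CD62L- cells. Medians over the 17 were 3.20, 5.15 and 4.57, and their part in the values of the members was not tested.

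Ncl was the member that rose, at 149.8, 149.7 and 149 FPKM in the CD44loCD62L+, 145, 145 and 145 in the CD44+CD62L+ and 151, 153 and 152 in the CD44+CD62L- libraries, against 72.98, 73.98 and 73.6 FPKM in the naive libraries. Its log2 fold changes were 1.01 ± 0.00777, 0.97 ± 0.00777 and 1.04 ± 0.00777, and the middle one was under the minimum. Those in the CD44loCD62L+ and CD44+CD62L- cells dropped under it with quantile normalization, at 0.95 and 0.93. Heatr1 was at 12.4, 11.9 and 11.9 FPKM in the CD44loCD62L+, 11.8, 12.01 and 11.5 in the CD44+CD62L+ and 12.9, 12.8 and 12.9 in the CD44+CD62L- libraries, against 25.4, 25.8 and 24.9 FPKM in the naive libraries, with log2 fold changes of -1.01 ± 0.0222, -1.05 ± 0.0222 and -0.93 ± 0.0222. Utp20 was at 5.88, 5.98 and 5.81 FPKM in the CD44loCD62L+, 6.31, 6.18 and 6.28 in the CD44+CD62L+ and 6.47, 6.43 and 6.52 in the CD44+CD62L- libraries, against 13.6, 13.7 and 12.6 FPKM in the naive libraries, with log2 fold changes of -1.05 ± 0.0270, -0.98 ± 0.0270 and -0.94 ± 0.0270. For both genes every cocktail library was below every naive library, and the calls turn on small distances from the 2-fold line. Heatr1 was no longer called with median-ratio scaling, at -0.958 in the CD44loCD62L+ and -0.998 in the CD44+CD62L+ cells. Nhp2 and Pno1, so far above in the IL-2 cells, were close to naive cells in the cocktail, with log2 fold changes against naive cells of -0.06 ± 0.0315 and -0.12 ± 0.0405 in the CD44loCD62L+, 0.24 ± 0.0315 and 0.16 ± 0.0405 in the CD44+CD62L+ and 0.27 ± 0.0315 and 0.19 ± 0.0405 in the CD44+CD62L- cells.

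The promoters of the 5 members that changed are shown because Nhp2 and Pno1 have like profiles, as do Heatr1 and Utp20, while Ncl has its own. Each window runs from 250 bases before to 50 bases after the gene start, is printed 5′ to 3′ on the strand of the gene, and comes from RefSeq on GRCm38.p6. Capitals mark the canonical E-box CACGTG, which reads the same on both strands. The windows lie at chr11:51619523-51619822 on the plus strand for Nhp2, chr11:17211540-17211839 on the minus strand for Pno1, chr1:86359406-86359705 on the minus strand for Ncl, chr13:12395125-12395424 on the plus strand for Heatr1 and chr10:88826765-88827064 on the minus strand for Utp20.
Nhp2: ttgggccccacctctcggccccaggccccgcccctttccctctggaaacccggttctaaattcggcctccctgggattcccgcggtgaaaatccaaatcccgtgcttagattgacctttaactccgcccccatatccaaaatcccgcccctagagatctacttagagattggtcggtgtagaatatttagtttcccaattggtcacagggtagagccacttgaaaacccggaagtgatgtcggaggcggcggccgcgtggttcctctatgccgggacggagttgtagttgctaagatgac
Pno1: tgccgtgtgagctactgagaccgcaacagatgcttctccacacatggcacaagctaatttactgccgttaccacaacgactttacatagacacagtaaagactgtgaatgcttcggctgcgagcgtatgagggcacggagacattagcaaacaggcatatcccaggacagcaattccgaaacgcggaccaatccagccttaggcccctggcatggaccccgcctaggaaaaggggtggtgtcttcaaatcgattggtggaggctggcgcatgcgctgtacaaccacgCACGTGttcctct
Ncl: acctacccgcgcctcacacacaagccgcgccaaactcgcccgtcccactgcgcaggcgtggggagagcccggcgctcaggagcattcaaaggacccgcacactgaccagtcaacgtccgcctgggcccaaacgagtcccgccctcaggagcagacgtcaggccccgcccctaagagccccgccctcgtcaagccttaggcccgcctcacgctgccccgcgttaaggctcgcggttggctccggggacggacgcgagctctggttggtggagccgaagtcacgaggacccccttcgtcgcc
Heatr1: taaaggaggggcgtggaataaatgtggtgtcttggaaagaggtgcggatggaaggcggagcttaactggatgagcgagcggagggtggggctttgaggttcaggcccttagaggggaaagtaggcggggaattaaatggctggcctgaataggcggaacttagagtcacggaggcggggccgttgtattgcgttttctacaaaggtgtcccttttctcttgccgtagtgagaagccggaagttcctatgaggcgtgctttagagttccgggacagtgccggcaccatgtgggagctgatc
Utp20: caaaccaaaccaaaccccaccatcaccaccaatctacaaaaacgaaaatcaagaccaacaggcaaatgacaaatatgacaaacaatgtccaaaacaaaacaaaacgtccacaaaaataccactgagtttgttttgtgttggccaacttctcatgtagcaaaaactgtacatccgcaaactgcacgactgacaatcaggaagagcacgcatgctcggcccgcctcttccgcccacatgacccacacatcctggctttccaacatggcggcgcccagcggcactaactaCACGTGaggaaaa
Pno1 and Utp20 each hold an E-box at position 38 after the start, and the other 3 windows hold none. Pno1 was higher and Utp20 lower in IL-2 than in naive cells. Both were lower in cocktail than in IL-2 CD44+CD62L- cells. The part of the motif in these levels was not tested. Promoters were found for 35 of the 41 members, and Myc, Npm1, Fbl, Rrp12, Bop1 and Rrs1 had no entry. The motif was in a window of 7 of the 35 members (20%), against 12.2% of 8009 genes tested with an entry and 8.09% of all 27025 genes with an entry. Besides Pno1 and Utp20 these were Mybbp1a, Nop2, Pes1, Tsr1 and Wdr43. A match describes the letters in the window and shows no binding.

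Members that work in the same particle did not keep a fixed proportion. The ratio of Bop1 to Pes1 was 0.682 ± 0.00346 in cocktail CD44loCD62L+, 0.825 ± 0.00582 in cocktail CD44+CD62L+, 0.795 ± 0.00728 in cocktail CD44+CD62L-, 1.30 ± 0.0159 in IL-2 and 1.40 ± 0.0308 in naive cells (SD over 3 libraries each). The ratio of Bop1 to Wdr12 was 1.78 ± 0.0761, 1.93 ± 0.0786 and 1.98 ± 0.0560 in the same 3 cocktail populations, 4.02 ± 0.193 in the IL-2 cells and 3.67 ± 0.327 in naive cells. Every IL-2 and every naive library had more Bop1 per Pes1 and per Wdr12 than any cocktail library. Pes1 to Wdr12, the third pair of this complex, varied less by fold, with population means between 2.33 in cocktail CD44+CD62L+ and 3.09 in IL-2 cells. The ratio of Nhp2 to Dkc1 was 1.52 ± 0.0588, 1.77 ± 0.0449 and 1.74 ± 0.0236 in the cocktail populations, 3.29 ± 0.113 in the IL-2 cells and 1.56 ± 0.0342 in naive cells. The ratio of Pno1 to Nob1 was 0.466 ± 0.0236, 0.663 ± 0.0132 and 0.634 ± 0.0224 in the cocktail populations, 1.23 ± 0.0749 in the IL-2 cells and 0.488 ± 0.0292 in naive cells. For both of these ratios the IL-2 libraries stood above all others. The ratio of Nop14 to Noc4l was lowest in the IL-2 and highest in the naive libraries, with 0.844 ± 0.0331, 0.665 ± 0.0174 and 0.734 ± 0.0223 in the cocktail populations, 0.571 ± 0.0116 in the IL-2 cells and 1.21 ± 0.0756 in naive cells. Polr1c to Polr1a was highest in the cocktail, with 3.77 ± 0.0258, 3.91 ± 0.0659 and 3.86 ± 0.0393, against 2.94 ± 0.122 in the IL-2 cells and 2.32 ± 0.0538 in naive cells. Ratios within a library do not depend on its linear scaling. Coding length, which is described below, differs between partners, such as 1038 bases in Polr1c and 5151 in Polr1a. The part of length in the ratios was not tested. A single ratio shows a changed proportion of 2 partners without saying which of them differed. Polr1b to Polr1a lay between 0.759 and 0.934, and Fbl to Nop56 between 1.14 and 1.35, as population means.

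**Figure D4:**
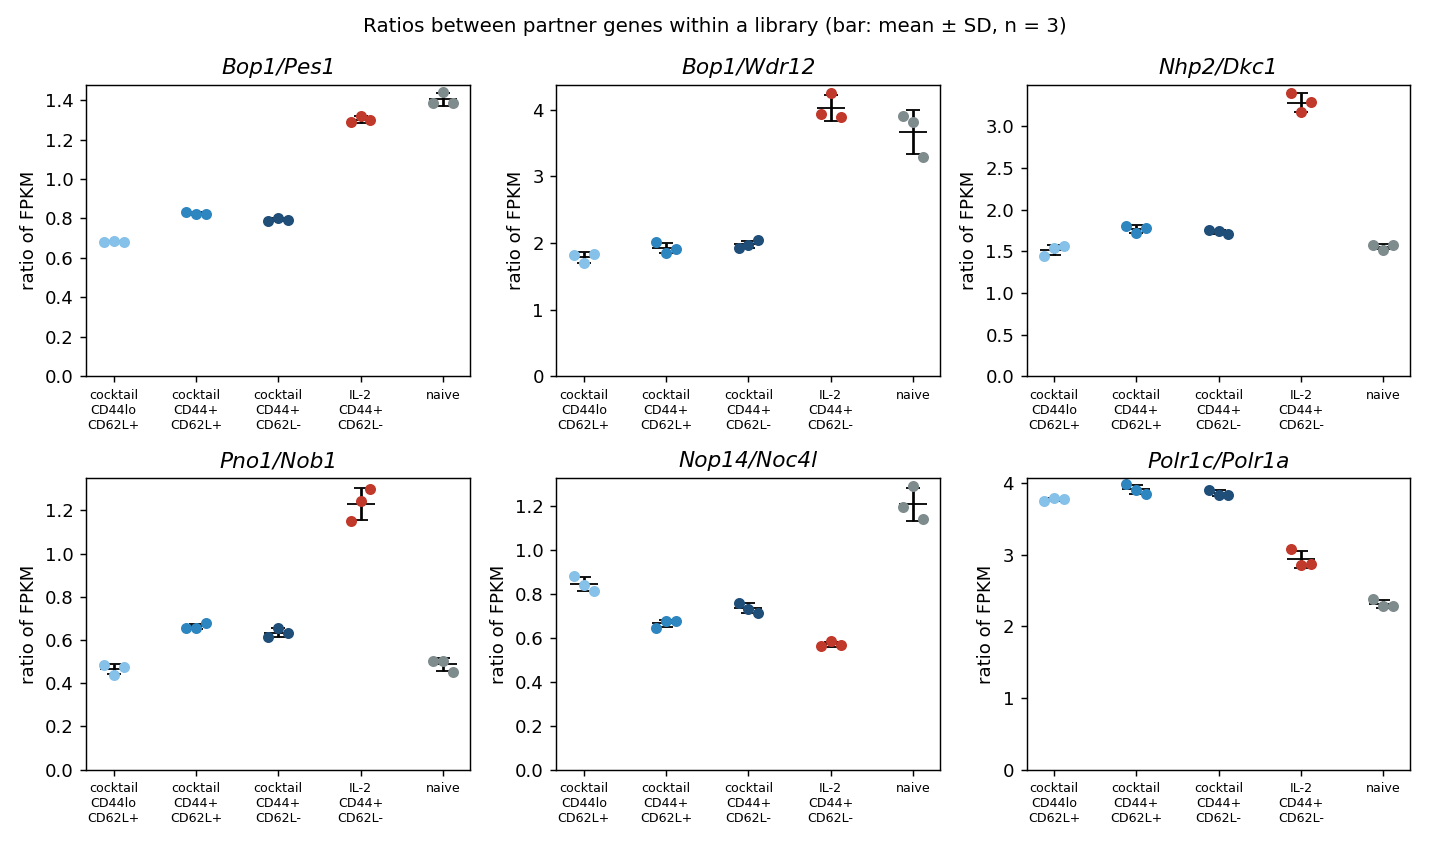
Ratio of the FPKM of 2 members that work together, within each library, for 6 pairs in the 5 populations. Points are libraries and bars are mean ± SD (n = 3), and the vertical axes start at 0. Bop1/Pes1 and Bop1/Wdr12 are lower in all cocktail libraries than in IL-2 and naive libraries, and Nhp2/Dkc1 and Pno1/Nob1 are highest in the IL-2 libraries.

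Among the members, the fold change of IL-2 over naive cells went with gene length. The longest annotated coding length ran from 459 bases in Nhp2 to 8367 bases in Utp20, with a median of 1614, and its logarithm had a Pearson correlation of -0.64 and a Spearman correlation of -0.61 with the log2 fold change across the 41 genes. Across 9722 genes with a coding length the values were -0.17 and -0.21. In cocktail CD44+CD62L- over naive cells, which share the naive libraries, the members gave -0.56 and -0.60, and in cocktail over IL-2 CD44+CD62L- cells 0.16 and 0.15. These are descriptions across genes, which are not independent replicates, and the genes share the libraries and their normalization. The share of small RNA in naive libraries, given above, moves with this comparison, and its part and that of RNA quality were not tested.

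**Figure D5:**
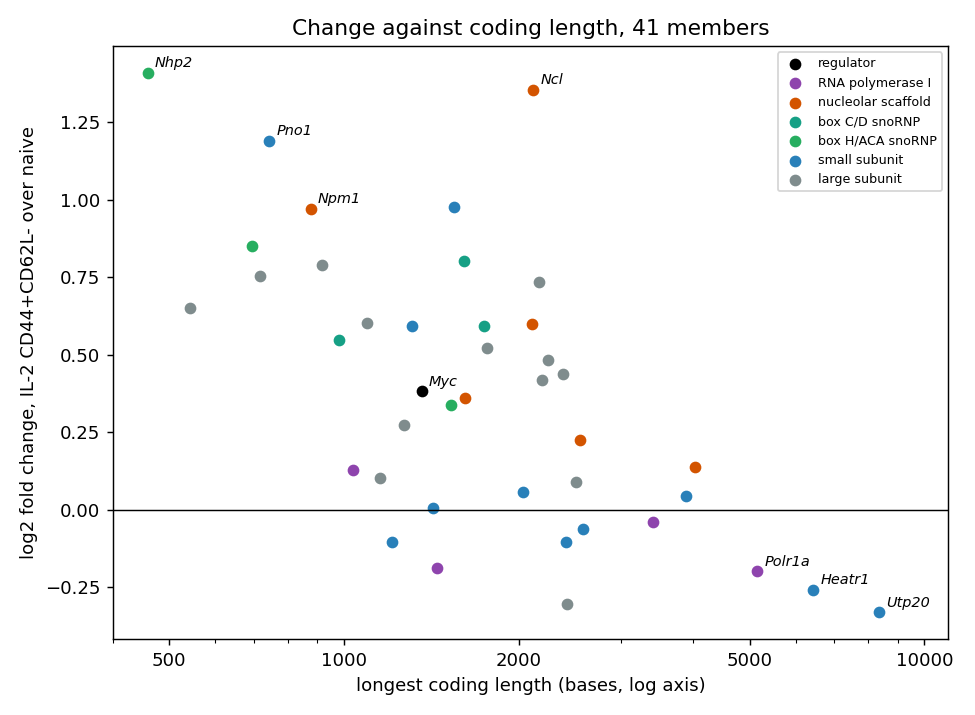
Log2 fold change of IL-2 CD44+CD62L- over naive cells against the longest annotated coding length in bases (log axis) for the 41 members, coloured by role. Short genes such as Nhp2, at 459 bases, lie high and long genes such as Utp20, at 8367 bases, lie lowest, while Ncl lies high at 2121 bases.

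Other genes of the pathway, listed by role, were counted in the same fits. At the adjusted p alone, 43.7% of all genes tested were lower and 40.6% higher in cocktail over IL-2 CD44+CD62L- cells, and 46.9% were higher and 44.9% lower in IL-2 over naive cells. No test of any list against these shares was made. In cocktail over IL-2 CD44+CD62L- cells, 42 of 45 further small subunit factors were lower and 2 higher at the adjusted p, with a median log2 fold change of -0.34, and 48 of 54 further large subunit factors were lower and 5 higher, with a median of -0.43. Of 14 exosome genes, whose products trim rRNA, 12 were lower and 1 higher, and of 13 further snoRNP genes 11 were lower and 0 higher, with medians of -0.40 and -0.43. Of the large subunit factors only Lyar passed the 2-fold minimum, and fell to 30.1 ± 1.17 FPKM in the cocktail cells, against 68.9 ± 1.11 FPKM in IL-2 cells. In the other lists Znhit3, a snoRNP assembly factor, and Polr2l, a small subunit that all 3 RNA polymerases share, fell as well, with log2 fold changes of -1.01 ± 0.0472 and -1.19 ± 0.0251. Gltscr2, a nucleolar large subunit factor, was at 308 ± 3.63 FPKM in the cocktail and 185 ± 2.96 FPKM in the IL-2 cells, higher at the adjusted p (log2 fold change 0.73 ± 0.0134). The 9 snoRNA host genes went the other way, with 6 higher and 1 lower and a median of 0.19, and Snhg7 rose (log2 fold change 1.04 ± 0.0701). Among the 16 further genes of the RNA polymerase I machinery 11 were lower and 2 higher, with a median of -0.31, and among 22 genes of RNA polymerase III 13 were lower and 6 higher, with a median of -0.15, shares nearer to those of all genes. In IL-2 over naive cells the further small subunit factors were split, 22 higher and 14 lower of 45, with a median of 0.05, as were the further large subunit factors, 29 higher and 18 lower of 54, with a median of 0.12. The exosome genes were mostly higher there, 12 against 1 lower of 14, with a median of 0.51. The further snoRNP genes had 9 higher and 3 lower of 13, with a median of 0.65. The RNA polymerase I list had 10 higher and 4 lower of 16 (median 0.28). The RNA polymerase III list had 10 and 9 of 22 (median 0.0009), and the snoRNA host genes 5 and 4 of 9 (median 0.49). Under quantile normalization the median of the small subunit list turned to -0.0061, with 22 higher and 19 lower, and that of the large subunit list was 0.034. The snoRNA host genes kept a median above 0, and the other lists above one below 0, in cocktail over IL-2 cells under each of the 3 scaling alternatives. Mdn1, a very large ATPase of large subunit export, fell to 6.61 ± 0.117 FPKM in IL-2 cells, against 32.5 ± 0.272 FPKM in naive cells, and Pop1, a protein of RNase P and MRP, rose to 16.3 ± 0.251 FPKM in IL-2 cells, against 3.83 ± 0.0797 FPKM in naive cells.

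Some relatives and partners of Myc differed by more than Myc itself. Mycn, its closest relative in this list, was at 0.162 ± 0.0627 FPKM in the cocktail CD44+CD62L- cells and 8.77 ± 0.404 FPKM in the IL-2 cells, and fell (log2 fold change -3.07 ± 0.0452, adjusted p = 1.13e-15). In naive cells it was at 0.00960 ± 0.00831 FPKM, and it rose in the IL-2 cells against them (log2 fold change 3.27 ± 0.0452). Max, the obligate partner of Myc, was at 51.6 ± 0.809 FPKM in the cocktail CD44+CD62L- and 32.6 ± 0.446 FPKM in the IL-2 cells, a log2 fold change of 0.65 ± 0.0201, and fell in IL-2 cells against naive cells, where it was at 73.9 ± 0.935 FPKM (log2 fold change -1.16 ± 0.0201). Mga, a repressor that pairs with Max, fell in IL-2 cells as well, to 6.28 ± 0.211 FPKM, against 16.3 ± 0.224 FPKM in naive cells. Mxd3, a Max partner that opposes Myc, rose to 43.8 ± 0.890 FPKM in the IL-2 cells, against 0.566 ± 0.215 FPKM in naive cells, and fell to 18.4 ± 0.480 FPKM in the cocktail CD44loCD62L+ cells, against 65.4 ± 0.712 FPKM in the cocktail CD44+CD62L+ cells. Of the 12 genes of this list tested, 4 were higher and 7 lower in cocktail over IL-2 CD44+CD62L- cells at the adjusted p, against 40.6% and 43.7% of all genes.

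The 40 other genes known as Myc targets were mostly lower in cocktail over IL-2 CD44+CD62L- cells, with 38 lower and 2 higher at the adjusted p, against 43.7% and 40.6% of all genes, and a median of -0.62. There 4 fell, such as Shmt1, an enzyme of one-carbon metabolism, at 13.3 ± 0.725 FPKM in the cocktail and 46.6 ± 0.412 FPKM in the IL-2 cells, and Srm, the spermidine synthase, at 37.96 ± 1.27 FPKM in the cocktail and 90.8 ± 2.17 FPKM in the IL-2 cells. In IL-2 over naive cells 19 of the 40 rose and 0 fell, against 17.6% and 13.7% of all genes, with a median of 0.999, while 3 of the 41 members rose and 0 fell. Hk2, a hexokinase, was at 15.9 ± 0.194 FPKM in the IL-2 and 0.439 ± 0.0584 FPKM in the naive cells. The difference between these lists was not tested.

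Across the 5 population means of log2(FPKM + 1), the other members did not follow Myc closely. The Pearson correlation with Myc was positive for 25 of the 40, with a median of 0.21, against 0.01 over all genes tested, and was highest for Ncl (0.76), Npm1 (0.76) and Pes1 (0.76) and lowest for Polr1a (-0.44). Over all 820 pairs of members, the 40 with Myc included, the median correlation was 0.65. The same median for pairs among all genes tested was not computed. The genes outside the list most like Myc, among 4573 whose means ranged over at least 1 on the log2 scale, were Pcsk4, Fam151b, Snord104, Mir466i, Snord87, Lrrc32, Klc3, Pex11a, Hist1h4k and Tns1, with correlations of 0.94 for Pcsk4 down to 0.90 for Tns1. The small RNAs Snord104, Mir466i and Snord87 were listed at 0 in the cocktail CD44+CD62L+, cocktail CD44+CD62L- and naive cells, and the other 7 had means under 10 FPKM in every population. With 5 points that share the libraries and their scaling, these values only describe likeness.

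In the GENCODE annotation of GRCm38, whole gene spans of 19 members overlap a gene on the opposite strand, and 7 (Ncl, Gnl3, Nop56, Nop58, Dkc1, Wdr43 and Tsr1) hold small RNA genes in their introns or exons. Ncl lies on chromosome 1 at 86344719 to 86359400 on the minus strand and contains Snora75 and Snord82. Nhp2 lies on chromosome 11 at 51619735 to 51623714 on the plus strand and overlaps Rmnd5b on the other strand. Pno1 lies on chromosome 11 at 17203198 to 17211568 on the minus strand and overlaps Wdr92 on the other strand, and Myc lies on chromosome 15 at 61985391 to 61990374 on the plus strand. The sources used here do not say whether counting used strand, so reads from stretches that such genes share may not be told apart. Whether their exons overlap was not checked. Mrto4 has 2 annotated pseudogenes named after it that could share its reads. Pseudogenes under other names were not looked for, in Mrto4 or in any other member.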

How the data were processed

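RNA of sorted mouse CD8 T cells was sequenced in 15 libraries, 3 for each of 5 populations. The values are FPKM per gene, deposited by the authors in 1 normalized table. TopHat2 2.0.9, Cuffdiff 2.1.1 and mm10 are named in the submitters' processing notes. The sources used here do not give the annotation or say whether counting used strand. Small RNA genes held a large share of the FPKM sums, and 6039 entries were at 0 in every library, among them Eef1a1, a gene used by every cell, so a value of 0 may be a failed estimate.

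From this table log2(FPKM + 1) was computed, and limma 3.58.1 in R 4.3.3 was fitted to all 15 libraries and 11242 genes whose mean reached 1 FPKM in some population, with a mean-variance trend, for 7 comparisons. A gene was called at a Benjamini-Hochberg adjusted p under 0.05 and a log2 fold change of at least 1. The script was tested on simulated data. The members, gene lists and tests were chosen with earlier results of these data known. Values in each library are given for Myc, for called members and for at most 4 members of a role group, those highest and lowest by fold change, and outside the members for the same ends of each list. Partner ratios and figures were made with pandas 2.3.3 and matplotlib 3.10.9 in Python 3.11.15. Promoter windows came from RefSeq on GRCm38.p6 and gene spans from GENCODE on GRCm38. The alternatives were pseudocounts of 0.1 and 5 FPKM, a filter of 5 FPKM or none, median-ratio scaling, quantile normalization, no trend, a fit on 6 libraries alone, a replicate block, a minimum fold of 1.5 and leaving out each library. An equal FPKM sum without small RNA genes was added after seeing the data.

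Total reads are not known. Among values below 0.1 FPKM, 68.9% of 3718 ratios between naive library 1 and another library, scaled to their common step, lay within 0.05 of a whole number, against 10% by chance, and the step gave a depth of 1.01 to 1.26 times that of naive library 1 in 13 libraries. In cocktail CD44loCD62L+ library 3 the step was less clear, at 0.625 times, so its depth is uncertain.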

Additional observations from a re-analysis of the deposited data

How the results depend on the processing

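The 280 log2 fold changes of the 40 members other than Myc were followed under the 25 alternatives set out first and 1 added later. Over these 7280 values, 9 calls were lost and 67 gained, most of the gains with a minimum fold of 1.5. No called value turned round, but only values called in the main fit, named below, could do so in this count. Changed filters, no trend, a fit on the compared libraries alone, the replicate block and the 1.5-fold minimum cannot by construction turn a fold change. Uncalled values did change sign, 17 with quantile normalization, 8 with median-ratio scaling and 4 with the equal FPKM sum without small RNA genes. Leaving out each library in turn gave 32 such changes in all. Myc was called in 0 of the 7 comparisons under each alternative. Most calls of the main fit were lost under some setting. These were Nhp2 in cocktail over IL-2 CD44+CD62L- cells, and Ncl, Heatr1 and Utp20 in each comparison of cocktail with naive cells where they were called. Only the calls of Nhp2, Ncl and Pno1 in IL-2 over naive cells held under every setting. In cocktail over IL-2 CD44+CD62L- cells the members called lower were 2 with a pseudocount of 0.1, 0 with quantile normalization and 21 with a minimum fold of 1.5, and leaving out a library gave 1 to 2, the gain being Pno1 without IL-2 library 1, IL-2 library 2 or cocktail CD44+CD62L- library 2. Its median was -0.51 with a pseudocount of 5, -0.54 with quantile normalization and -0.56 with an equal FPKM sum without small RNA genes, and the genes called were 1393, 379 and 2467 with pseudocounts of 0.1 and 5 and the 1.5-fold minimum. In cocktail CD44+CD62L+ over CD44+CD62L- cells the genes called were 41, 7 and 71 under those 3 settings, and 7 with the equal sum. In cocktail CD44loCD62L+ over CD44+CD62L+ cells they were 495, 178 and 974, and the median was 0.028 with quantile normalization and -0.064 with the equal sum. In IL-2 over naive cells the median was 0.21 with quantile normalization and 0.35 with the equal sum, 15 members were higher with the 1.5-fold minimum, and the genes called were 2038 with a pseudocount of 5 and 6020 with the 1.5-fold minimum. Leaving out a library gave 3 to 4 members higher, with Noc4l joining without naive library 3.

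Against naive cells, cocktail CD44+CD62L- cells had 1 member lower with a pseudocount of 0.1, 0 higher with quantile normalization, and 2 higher and 6 lower with the 1.5-fold minimum. Medians were -0.17 with median-ratio scaling and -0.28 with quantile normalization, and 1393 and 4913 genes were called with a pseudocount of 5 and the 1.5-fold minimum. Cocktail CD44+CD62L+ cells had 2 members lower with a pseudocount of 0.1, 0 with a pseudocount of 5, 0 with median-ratio scaling, where 1 was higher, 2 with quantile normalization and 9 with the 1.5-fold minimum, where 2 were higher. Leaving out a library gave 1 to 2 lower, with Utp20 joining without naive library 3 at -1.01, and medians of -0.27 to -0.23. Medians were -0.20 with median-ratio scaling, -0.31 with quantile normalization and -0.22 with the equal sum, and 1412 and 4888 genes were called with a pseudocount of 5 and the 1.5-fold minimum. Cocktail CD44loCD62L+ cells had 0 members higher and 0 lower with a pseudocount of 5, with a median of -0.17 and 1014 genes called, 1 lower and a median of -0.15 with median-ratio scaling, 0 higher with quantile normalization, and 2 higher, 8 lower and 4040 genes called with the 1.5-fold minimum. A larger pseudocount shrinks the fold changes of low genes by construction, and for the other settings the cause was not tested.

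Replicate numbers did not pair the libraries: deviations from the population means had a median correlation of -0.014 over 30 pairs with the same number and 0.017 over 60 pairs with different numbers. With the replicate block, the genes called in cocktail over IL-2 CD44+CD62L- cells were 881 against 882 without it, and the counts of members called in the 7 comparisons were the same as without it. Replicates are technical and their total depth is unknown. Differences far smaller than 2-fold passed the adjusted p, and a difference between mice or cultures was not measured.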
